A study of Mus musculus with 16 samples.

Results

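The epithelial sodium channel and the kinase and ubiquitin ligase that set its amount at the cell surface were followed in mouse kidney through 5 genes, taken by symbol from the 27998 genes of the single-cell tables. Scnn1a, Scnn1b and Scnn1g encode the alpha, beta and gamma subunits of the channel, Sgk1 encodes the serum and glucocorticoid regulated kinase, and Nedd4l encodes the ubiquitin ligase that the kinase phosphorylates. All 5 symbols were found, and their UMIs, the counted RNA molecules, were summed per library and per nephron segment. The study set wild type mice against Gulo-/- mice, which lack the enzyme for the last step of vitamin C synthesis. It held 16 samples, 2 per genotype in each of 4 assays, from kidneys that were chopped, mixed and shared out among the assays, under the strain label C57BL/6 for both genotypes. The labels give no age, no diet and no vitamin C supply, and do not say whether a genotype's samples came from separate animals. A p-value here therefore speaks for these libraries only, and the test draws a gene's spread in part from other genes.

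The channel lets sodium cross the apical membrane of the late distal nephron and collecting duct, where it carries the hormonally regulated part of sodium uptake and drives potassium secretion. Aldosterone acts through the mineralocorticoid receptor, which is shielded from glucocorticoids by the enzyme encoded by Hsd11b2, and the receptor raises transcription of Scnn1a and Sgk1. Nedd4l binds the channel's subunits and marks them for removal from the membrane, and phosphorylation by Sgk1 holds the ligase back.

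The 4 single-cell libraries differed in size. They held 2090 and 11829 barcodes in wild type and 2919 and 16822 in Gulo-/-, with 10208946 to 88925323 UMIs in all. After limits on UMIs, genes and mitochondrial share, 24975 barcodes were kept, with a median of 3027 to 4978 UMIs per library. Of the barcodes of wild type 2, 986 also occurred in wild type 1, against 9 to 282 in the other pairs of libraries, and those were left out of wild type 2. Keeping them changed the call of a pair of results on the members, which are given with the results they touch. Wild type 1 and Gulo-/- 2 carried Xist, the other pair carried Ddx3y, so each genotype held 1 female and 1 male library. Gulo itself had 0 to 2 UMIs per library over the kept barcodes and could not serve as a check of genotype. In what follows, values from the 4 libraries come in the order wild type 1, wild type 2, Gulo-/- 1, Gulo-/- 2, and CPM (counts per 1e6) is the gene's UMIs over all UMIs of that cell class in that library, scaled to 1e6.

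Segments were gated on markers other than the 5 genes, and the class names carry "-like" because they rest on those markers alone. The gate gave 11238 proximal tubule-like (PT) cells, 4054 thick ascending limb-like (TAL), 1349 distal convoluted tubule-like (DCT), 631 connecting tubule-like (CNT), 873 principal cell-like (PC) and 1217 intercalated cell-like (IC) cells. The gate itself sets the marker levels, which therefore only describe the classes. PT markers summed to 6964 to 13430 CPM in PT-like cells, and PC markers to 20030 to 36020 CPM in PC-like cells of 3 libraries. IC-like cells carried the IC markers at 10080 to 12580 CPM and still held PC markers at 391 to 1988 CPM. DCT-like cells carried TAL markers at 1365 to 6733 CPM and CNT markers at 639 to 3763 CPM beside their own at 4095 to 5389 CPM. Cell numbers were uneven, since wild type 1 held 10 DCT-like, 33 CNT-like, 2 PC-like and 11 IC-like cells against 1212, 486, 738 and 1064 in Gulo-/- 2. PC-like cells of wild type 1 were not summed, and CNT-like and PC-like cells together, 1504 in all, are called late distal.

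The beta and gamma subunit genes are neighbours. Scnn1g and Scnn1b lie 96.6 kb apart on chromosome 7 and on the same strand, at chr7:121734420-121768482 and chr7:121865038-121918728, while Scnn1a lies at chr6:125314271-125344943 and Sgk1 at chr10:21882184-21999903 (RefSeq, GRCm38.p6). The RefSeq table of promoters, 250 bases before to 50 after a start, held 3 of the 5 members. The promoter table puts the Scnn1g start past the first base of the gene span given above, so the end of its stretch lies inside that span. The first pair below shows the 250 bases before the Scnn1b start, chr7:121864788-121865037, and before that Scnn1g start, chr7:121734229-121734478, both on the plus strand. Each CG is in capitals because CG is where the methylation data apply.
Scnn1b: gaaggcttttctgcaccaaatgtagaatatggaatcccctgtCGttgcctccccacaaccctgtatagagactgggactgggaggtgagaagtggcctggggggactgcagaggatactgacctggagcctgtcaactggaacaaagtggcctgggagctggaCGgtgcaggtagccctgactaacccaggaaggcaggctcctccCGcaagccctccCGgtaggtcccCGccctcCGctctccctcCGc
Scnn1g: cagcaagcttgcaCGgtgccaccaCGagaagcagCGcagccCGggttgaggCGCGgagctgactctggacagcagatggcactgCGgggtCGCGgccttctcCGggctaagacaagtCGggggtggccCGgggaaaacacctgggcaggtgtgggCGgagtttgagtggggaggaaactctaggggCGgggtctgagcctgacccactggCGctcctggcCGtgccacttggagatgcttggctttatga
The stretch shown for Scnn1b held 7 CG and that for Scnn1g held 16. Over the whole windows of 300 bases the counts were 10 and 18, above the median of 7 over all 32851 windows in the table.

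Sgk1 has 6 starts in that table, and 1 of the 6 windows held the letters AGAACA, any 3 bases, then TGTTCT. This palindrome reads alike on both strands and is the textbook response element of the glucocorticoid and mineralocorticoid receptors. The 250 bases before that start, chr10:21993640-21993889 on the plus strand, are shown because they hold the palindrome, which is in capitals with its spacer.
Sgk1: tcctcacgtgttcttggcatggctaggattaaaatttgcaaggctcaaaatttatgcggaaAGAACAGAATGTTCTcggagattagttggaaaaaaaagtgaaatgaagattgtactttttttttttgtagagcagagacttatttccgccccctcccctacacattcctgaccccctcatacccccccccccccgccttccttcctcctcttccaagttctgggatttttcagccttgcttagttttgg
The palindrome lay at chr10:21993701-21993715, its centre 182 bases before the start. It occurred in 3 of the 32851 windows (0.00913%), and a single 6-base arm, AGAACA or TGTTCT, in 6233 of them (19%). Scnn1a and Nedd4l had no window in that table, so the palindrome was not sought there. The match describes letters only. No data on receptor binding were used.

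Scnn1a was the subunit with the broadest range along the nephron. It was nearly absent from PT-like cells, at 0.408, 3.87, 3.79 and 12.0 CPM, and clearly present in TAL-like cells, at 105, 89.9, 163 and 139 CPM. The libraries of the 2 classes did not overlap, and the lowest TAL-like value lay above the highest PT-like one. The difference was 4.34 ± 0.54 on the log2 scale (edgeR quasi-likelihood test with library as a term, adjusted p = 5.84e-06). DCT-like cells had 0, 116, 356 and 202 CPM, where the 0 came from 10 cells and allowed up to 87.2 CPM. CNT-like cells had 298, 245, 340.3 and 149.6 CPM. PC-like cells had 305, 328 and 219.6 CPM in the 3 libraries that held enough of them, and IC-like cells 178, 210.3, 392 and 210.5 CPM. Every PC-like and IC-like value lay above every TAL-like value, and CNT-like exceeded TAL-like cells within each of the 4 libraries, differences across several steps that were not tested. None of the neighbouring steps past TAL passed the test (adjusted p = 0.926 for DCT against TAL, 0.693 for CNT against DCT, 0.845 for PC against CNT and 0.991 for IC against PC). The 95% interval of the last step, IC against PC, ran from -1.07 to 1.10 on the log2 scale, so a difference of up to about that size in either direction was not resolved.

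Scnn1b, the beta subunit, was held to the late distal nephron far more tightly. In PT-like cells it had 0.816, 1.84, 2.17 and 8.57 CPM, in TAL-like cells 7.02, 2.04, 0 and 9.94 CPM and in DCT-like cells 0, 15.5, 23.0 and 16.8 CPM. In CNT-like cells it had 501, 278, 446 and 286 CPM (mean 377.6 ± 113 SD, n = 4). Every CNT-like value lay above every DCT-like value, a step of 4.75 ± 0.67 on the log2 scale (edgeR, adjusted p = 2.53e-04). PC-like cells, at 418, 506 and 439.9 CPM, did not differ from CNT-like cells beyond the spread (-0.12, 95% interval -1.15 to 0.91). In IC-like cells the level was 0, 87.2, 170.0 and 83.3 CPM, below PC-like cells in each of the 3 libraries with both classes. That difference was -2.08 ± 0.50 (edgeR, adjusted p = 0.0059). It did not pass the threshold without wild type 2 (adjusted p = 0.0628) or without Gulo-/- 1 (0.0556).

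Scnn1g, the gamma subunit, followed the beta subunit. It had at most 3.81 CPM in PT-like, 5.76 in TAL-like and 6.45 in DCT-like cells of any library. CNT-like cells had 338, 186, 478 and 223 CPM, a step from DCT of 6.01 ± 0.65 on the log2 scale (edgeR, adjusted p = 1.56e-05). PC-like cells had 362, 316 and 362 CPM, within the spread of CNT-like cells (-0.15, 95% interval -1.03 to 0.73). IC-like cells had 0, 31.1, 66.5 and 36.6 CPM, and the step down from PC was -3.09 ± 0.47 (edgeR, adjusted p = 1.06e-04). The groups did not overlap at either step.

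**Figure D1:**
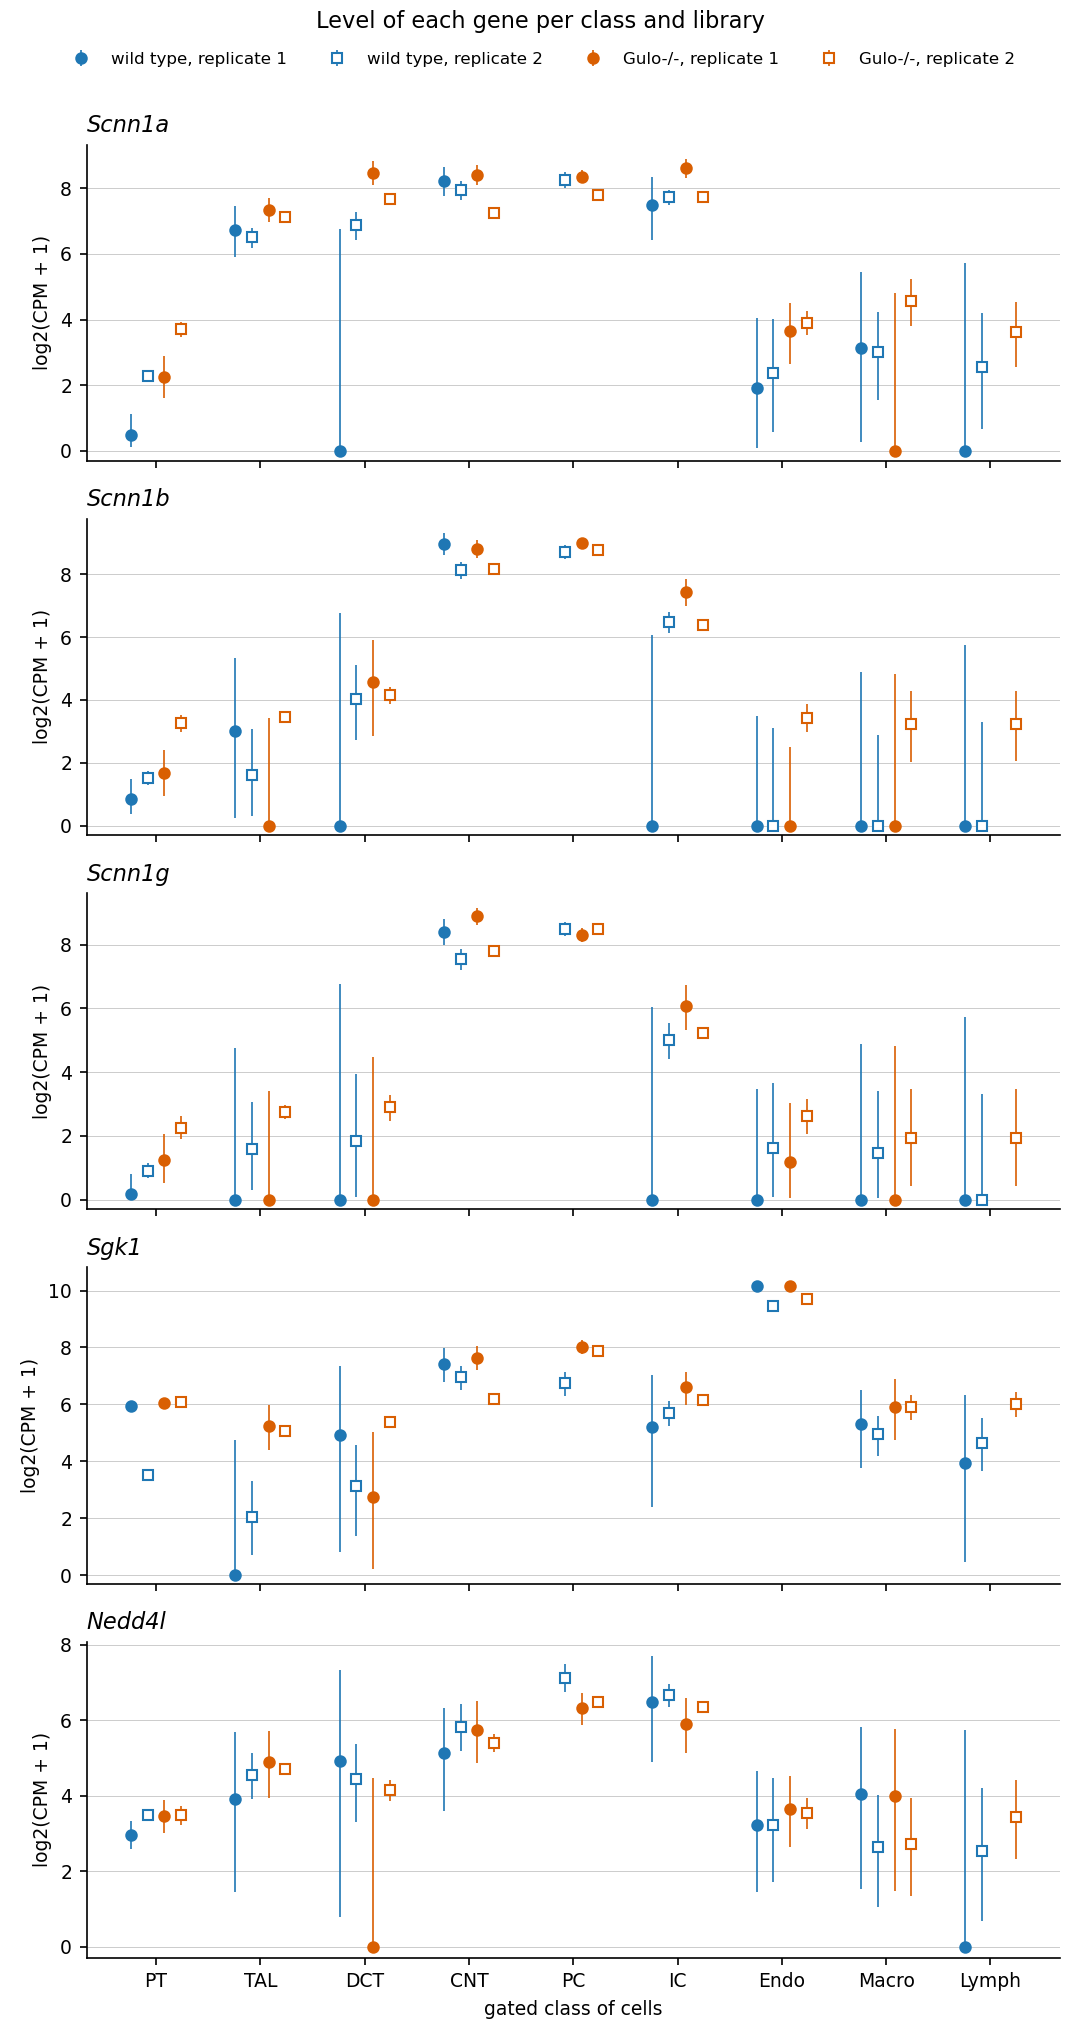
Level of the 5 genes in each gated class and library, as log2(CPM + 1), with 1 panel per gene, points for libraries and bars for exact 95% Poisson intervals of the counts. Scnn1a is up from TAL-like cells onward, Scnn1b and Scnn1g rise at CNT-like cells, and Sgk1 has its highest points in endothelial-like cells, between 709.5 and 1146 CPM.

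Free RNA in droplets can give UMIs to cells that do not express a gene. The level of each gene was therefore set beside that in PC-like cells of the same library. In Gulo-/- 2, Scnn1b stood at 1.95% of its PC-like level in PT-like cells, 2.26% in TAL-like, 1.92% in macrophage-like and 1.93% in lymphoid-like cells, that is, at a like share in types that should lack the channel. In wild type 2 Scnn1b stood at 0.44% in PT-like and 0.489% in TAL-like cells, and at 0% in macrophage-like and lymphoid-like cells. In Gulo-/- 1 it stood at 0.428% in PT-like cells and at 0% in TAL-like and macrophage-like cells. The source of these low values was not tested. Aqp2, the water channel of principal cells, stood at 1.68%, 5.15% and 3.43% of its PC-like level in IC-like cells of wild type 2, Gulo-/- 1 and Gulo-/- 2. In the same 3 libraries Scnn1b stood at 20.9%, 33.6% and 18.9% in IC-like cells and Scnn1g at 8.58%, 21.1% and 10.1%, above the share of Aqp2 each time. Scnn1a stood there at 69.0%, 120.0% and 95.9%, and in TAL-like cells at 29.5%, 49.6% and 63.4%, against 0.186% to 0.859% for Aqp2. Its own share was 2.3%, 0% and 10.3% in macrophage-like and 1.27%, 1.16% and 5.48% in PT-like cells, below the TAL-like and IC-like shares in each library. Neutrophil-like cells were not as low. In wild type 2 they had 125.4 CPM of Scnn1a, from 9 UMIs in 28 cells, above the TAL-like 89.9 CPM. In Gulo-/- 2 they had 48.6 CPM, from 8 UMIs in 65 cells, below the TAL-like 139 CPM. The source of these UMIs was not tested.

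The steps differed in how many genes of any kind they moved, and the members' counts read against that. Between TAL and PT 56.6% of the 8047 genes tested were called at an adjusted p under 0.05, with 2 members among them, Scnn1a and Nedd4l. Between DCT and TAL 5.58% were called and 0 members. At the step from DCT to CNT 9.1% were called, with 4 of the 5 members (Scnn1b, Scnn1g, Sgk1 and Nedd4l), all higher in CNT. Between PC and CNT 12.3% were called and 1 member, Nedd4l. Between IC and PC 23.3% were called and 2 members, Scnn1b and Scnn1g, both lower in IC.

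**Figure D2:**
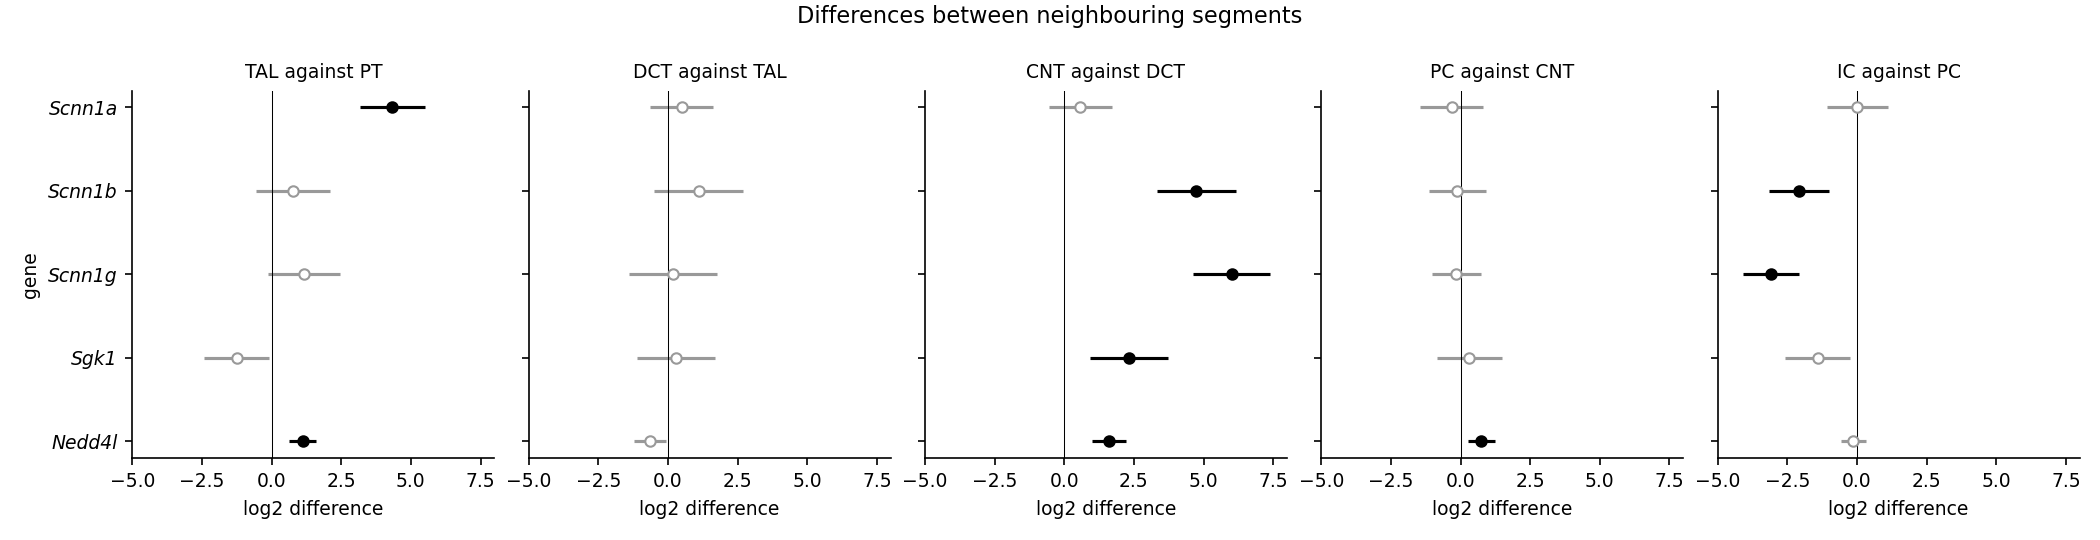
Difference of each gene at the 5 steps from 1 segment to the next, in log2 units with 95% intervals, filled where the adjusted p was under 0.05. The step from DCT to CNT carries 4 filled points, led by Scnn1g at 6.01 and Scnn1b at 4.75.

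Sgk1, the kinase, was highest outside the tubule. Endothelial-like cells, 88 to 860 per library, had 1146, 709.5, 1139 and 839.7 CPM (mean 958.5 ± 219 SD, n = 4), above every tubular value. Along the tubule the PT-like level was 60.3, 10.5, 65.3 and 67.5 CPM, with wild type 2 low, and the TAL-like level 0, 3.07, 36.7 and 32.1 CPM. The fall from PT to TAL did not pass the test (-1.25 ± 0.54, edgeR, adjusted p = 0.0642), and it did pass with the shared barcodes kept (adjusted p = 0.042) or without wild type 2 (0.0215). DCT-like cells had 29.1, 7.73, 5.75 and 41.1 CPM, of which the first 3 rest on 1, 3 and 1 UMIs. In CNT-like cells the level was 169, 122, 199 and 71.6 CPM, each above every DCT-like value, a step of 2.31 ± 0.65 (edgeR, adjusted p = 0.0383). This call was thin. It was lost without wild type 1 (adjusted p = 0.12), wild type 2 (0.0632) or Gulo-/- 1 (0.349). PC-like cells had 106, 259 and 236 CPM and IC-like cells 35.6, 51.4, 96.1 and 69.9 CPM. Neither PC against CNT (0.32, adjusted p = 0.850) nor IC against PC (-1.40 ± 0.54, adjusted p = 0.0815) passed the test, although IC-like cells were lower in each of the 3 libraries with both classes. Without wild type 2 the second passed (adjusted p = 0.0264). Macrophage-like cells had 38.5, 29.7, 59.3 and 59.1 CPM, so TAL-like values lay below those of an immune class in all 4 libraries and PT-like values above them in 3.

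Nedd4l, the ubiquitin ligase, passed the test at 3 of the 5 steps, higher each time. PT-like cells had 6.80, 10.3, 10.03 and 10.1 CPM and TAL-like cells 14.1, 22.5, 28.9 and 25.2 CPM, with no overlap and a difference of 1.11 ± 0.23 (edgeR, adjusted p = 1.34e-04). DCT-like cells had 29.1, 20.6, 0 and 16.6 CPM, the first from 1 UMI, and did not differ from TAL beyond the spread (adjusted p = 0.294). CNT-like cells had 33.8, 56.1, 52.7 and 41.6 CPM, 1.62 ± 0.30 above DCT (edgeR, adjusted p = 2.65e-04), and PC-like cells 139, 78.9 and 88.8 CPM. The last step, 0.75 ± 0.24 (edgeR, adjusted p = 0.0354), was lost on leaving out any 1 library (adjusted p between 0.0824 and 0.483). IC-like cells, at 88.9, 100.4, 59.1 and 80.8 CPM, lay in the PC-like range (-0.12, 95% interval -0.58 to 0.33). In macrophage-like cells the level was 5.25 to 15.4 CPM, a range that holds all 4 PT-like values.

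Summed UMIs do not show how many cells carry a gene, so each cell was thinned to 1000 UMIs. The share of cells with at least 1 UMI was counted, with exact 95% binomial intervals. Cells were pooled over the 4 libraries, so the intervals leave out the spread between libraries. Gulo-/- 2 gave 738 of 873 PC-like, 1064 of 1217 IC-like and 3717 of 4054 TAL-like cells. Wild type 2 gave 6276 of 11238 PT-like cells, so differences between classes are also differences between libraries. Scnn1b was found in 35.5% of PC-like cells (32.3 to 38.8), 21.2% of CNT-like (18.1 to 24.6), 6.25% of IC-like (4.95 to 7.75) and 1.63% of DCT-like cells (1.03 to 2.46). In immune cells, macrophage-like and lymphoid-like together, the share was 0.389%, and PT-like cells at 0.463% and TAL-like cells at 0.740% were near it. By library the PT-like share was 0.230%, 0.223%, 0% and 1.24%. Scnn1g had 27.8% of PC-like and 19.0% of CNT-like cells, then 1.81% of IC-like and 0.519% of DCT-like cells, against 0.130% of immune cells. Scnn1a was found in 12.0% of TAL-like (10.98 to 13.0), 16.7% of DCT-like, 15.5% of CNT-like, 19.7% of PC-like and 18.0% of IC-like cells, and in 0.552% of PT-like and 0.778% of immune cells. Sgk1 was found in 53.9% of endothelial-like cells (51.3 to 56.6) and 17.8% of PC-like cells (15.3 to 20.5). Its shares pooled over libraries were 3.09% in PT-like, 2.64% in TAL-like, 3.04% in DCT-like and 5.06% in immune cells, and the order varied by library. In PT-like cells the share was 5.37%, 1.05%, 7.01% and 5.40%, against 3.92%, 4.10%, 1.85% and 6.16% of immune cells. Nedd4l rose from 0.748% of PT-like to 8.02% of PC-like and 6.66% of IC-like cells, against 0.649% of immune cells. Without thinning, late distal cells, with a median of 7254 UMIs, had a UMI of Scnn1a in 65.4%, Scnn1b in 83.0%, Scnn1g in 75.3%, Sgk1 in 51.9% and Nedd4l in 36.8% of cells. The immune cells, with a median of 2972 UMIs, had 3.89%, 1.56%, 0.649%, 13.9% and 2.59%.

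**Figure D3:**
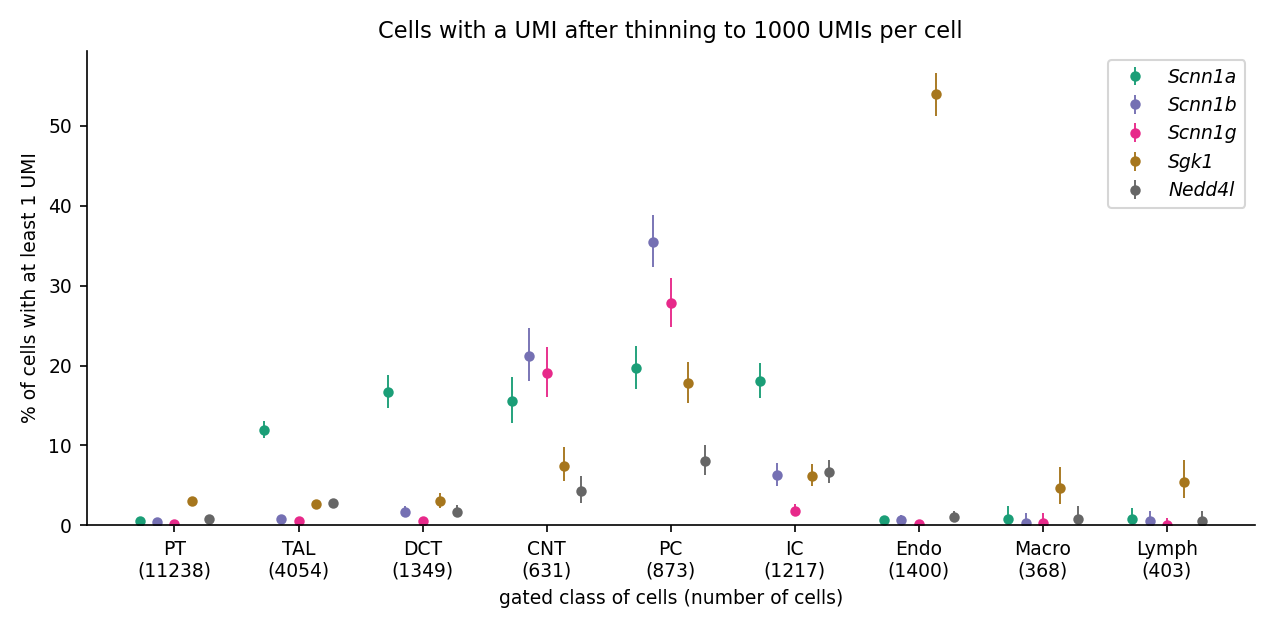
Share of cells with at least 1 UMI of each gene after thinning every cell to 1000 UMIs, by gated class pooled over the 4 libraries, with exact 95% binomial intervals. PC-like and CNT-like cells stand highest for Scnn1b and Scnn1g, while Scnn1a lies between 12.0% in TAL-like and 19.7% in PC-like cells.

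A working channel needs its subunits in the same cell. Among the 1504 late distal cells at full depth, 784 (52.1%) held a UMI of all 3 subunits, 404 held 2, 204 held 1 and 112 (7.45%) held none. The product of the 3 separate shares would give 614.6 cells, a figure that takes no account of depth, which raises all 3 together. Over the libraries the share with all 3 was 31.4%, 53.3%, 54.2% and 52.4%, lowest in wild type 1, where 33 of 35 cells were CNT-like. Its late distal cells were also the shallowest, with median UMIs of 3134 against 8662.5, 4963 and 7545. The parts of class mix and depth were not tested. PC-like cells had all 3 in 62.3% and CNT-like cells in 38.0%, against 130 of 1217 IC-like, 5 of 1349 DCT-like and 11 of 4054 TAL-like cells. With 2000 UMIs per cell the share among late distal cells was 137 of 1464, where the product was 92.57. Both products pool classes and libraries that differ in their shares, so they do not measure a link within cells. At 2000 UMIs Scnn1b was found in 57.2% of PC-like and 37.8% of CNT-like cells. Of 780 late distal cells with an Sgk1 UMI, 764 also held a subunit.

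By the pattern over 40 sums of class and library, in log2(CPM + 1), Scnn1b and Scnn1g were most like each other among the members (Pearson r = 0.919), and Scnn1a was less like either (0.734 and 0.628). Among 9878 genes with enough late distal UMIs, those nearest to Scnn1b included Scnn1g, Kcne1 (0.912), Hsd11b2 (0.904) and A930017K11Rik (0.895). Those nearest to Scnn1g were A930017K11Rik (0.942), Hsd11b2 (0.927), Scnn1b, Avpr2 (0.915) and Lypd6 (0.907), where Avpr2, the vasopressin receptor, is a gate marker of PC. Scnn1a had Slit2 (0.878), Zfp618 (0.867), Ildr1 (0.863), Cds1 (0.861) and Epb41l4b (0.86) nearest. Sgk1 had Efnb2 (0.767), Edn1 (0.763), Endod1 (0.76), Gnb1 (0.753) and Ednrb (0.746), of which Efnb2 and Edn1 are known from endothelium. Nedd4l had Krt18 (0.769), Cldn3 (0.759, a gate marker of thin limb), Myo5c (0.759), Sipa1l3 (0.741) and Arhgef38 (0.736). The sums share libraries and depth, and these values are descriptions.

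The authors clustered the same cells themselves, and 14 of the 1919 entries of their table of markers for 13 clusters name a member. In the authors' deposited table Scnn1b has a natural log ratio of 1.4843 in the cluster CD-PC, with detection in 88.2% of its cells against 8.0% of the others, then 1.1624 in DCT2 and 0.4063 in CD-IC2. The authors' deposited table lists Scnn1g in CD-PC (1.3051) and DCT2 (1.0046) and in no intercalated cluster. Scnn1a spreads over 5 clusters in the authors' deposited table, CD-PC, CD-IC1, DCT1, CD-IC2 and DCT2, with ratios from 0.4808 to 0.6581. The authors' deposited table gives Sgk1 its largest ratio in fEC, 1.9486 with 80.0% of cells against 15.4%, and 0.3974 in CD-PC. Nedd4l appears in the authors' deposited table for CD-IC1 (0.3831) and CD-IC2 (0.3866) only. These lists come from the cells tested above and are no independent evidence.

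Genes around the channel were followed in 6 lists, chosen by function, and a list of immediate early and dissociation genes was kept beside them. Of the hormone axis, 7 of 8 genes were tested between segments. Nr3c2, the mineralocorticoid receptor, was higher in TAL than PT (2.16 ± 0.40, adjusted p = 2.31e-05) and again higher in CNT than DCT (1.63 ± 0.42, adjusted p = 0.00953). Per1 (1.18) was also higher and Tsc22d3 (-0.68) lower in TAL than PT, both induced by steroid hormones. Hsd11b2, the enzyme that shields it, rose at the step from DCT to CNT by 6.91 ± 1.02 (edgeR, adjusted p = 3.97e-04), the step at which Scnn1b and Scnn1g rose. In late distal cells it had 4838, 2895, 3718 and 2892 CPM. At that step 2 of the 7 genes fell, Fkbp5 (-1.69) and Nr3c1, the glucocorticoid receptor (-1.24), and the list's median was -0.44 against 0.11 over all genes tested. The share of all genes called there was 9.1%. Between IC and PC, Hsd11b2 (-3.07), Nr3c2 (-1.03) and Tsc22d3 (-0.96) were lower and Nr3c1 (1.11) higher in IC, 4 calls among the 7. The share of all genes called there was 23.3%. Tsc22d3 was the 1 gene of the list called between PC and CNT, higher in PC (0.93, adjusted p = 0.0423).

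The proteases that cleave the channel's alpha and gamma subunits, and their inhibitors, were called mostly between PT and TAL. The same holds for genes of any kind, with 56.6% of all tested called there and 5.58% to 23.3% at the later steps. Of 8 tested, 6 were higher in TAL than in PT, among them St14 (4.28), which encodes matriptase, Klk1 (4.0), tissue kallikrein, and the inhibitors Spint2 (1.66) and Spint1 (1.56), while Prss8, prostasin, was lower (-1.50). The list's median there was 1.69 against 0.07 over all genes. Klk1 rose further from DCT to CNT (2.69) and fell from CNT to PC by 6.82 on the log2 scale (edgeR, adjusted p = 1.64e-05). Its CNT-like level was 13780, 24240, 10990 and 16420 CPM and its PC-like level 183, 72.1 and 350.2 CPM. Tmprss2 had the same directions at both steps (1.38 and -0.68). Plau, urokinase, was lower in DCT than TAL (-3.90). Of the kinases and adaptors 5 of 15 were higher and 4 lower in TAL than PT, near the 56.6% of all genes called there. Stk39 (4.13), Wnk4 (3.17) and Wnk1 (3.07), of the pathway that controls the thiazide-sensitive and loop cotransporters, led those higher, and Sgk3 (-1.18) those lower. Wnk1, whose kidney form marks the distal convoluted tubule, was 2.29 ± 0.26 higher in DCT than TAL (edgeR, adjusted p = 1.18e-05), then 1.02 lower in CNT than DCT and 3.84 lower in PC than CNT. Sgk2 and Sgk3, the kinases related to Sgk1, were lower in PC than CNT (-2.03 and -1.60) and higher in IC than PC (2.40 and 2.02).

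Of the 6 ubiquitin genes beside Nedd4l, 0 were called between DCT and CNT, where 9.1% of all genes were, so the count says little about the list. Nedd4, the closest relative of Nedd4l, did not pass between TAL and PT (0.03, adjusted p = 0.884) and had 97.6, 84.0, 119 and 95.9 CPM in late distal cells. Wwp2 (-0.73), Uchl3 (-0.63) and Itch (-0.57) were lower in TAL than PT. Usp2, a deubiquitinase of the channel known to cycle with the day, was higher in TAL than PT (0.87) and lower in PC than CNT (-1.02). Of the 2 repressors of Scnn1a listed, Dot1l was the one tested between segments, and it was higher in TAL than PT (1.26) and called at no later step. Among partner channels and the sodium pump, 5 of 7 were higher in TAL than PT, where 56.6% of all genes were called. The potassium channel gene Kcnj1 led them (5.23). Fxyd4, a pump regulator of the collecting duct, rose from DCT to CNT (4.32) and from CNT to PC (3.06) and fell from PC to IC (-5.37). Beside all of these, 12 of 16 immediate early genes were higher in PC than CNT (median 2.24 against 0.08 over all genes), where 12.3% of all genes were called. The part of the immediate early genes in the members' values was not tested.

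Between the genotypes, no difference in the channel was detected in the cells that carry it. In late distal cells Scnn1a had 336, 277, 332 and 195 CPM, Scnn1b 549, 353, 488 and 386 CPM, and Scnn1g 342, 281, 364 and 313 CPM. For each of the 3 genes the wild type and Gulo-/- libraries overlapped. The differences, Gulo-/- minus wild type on the log2 scale, were -0.29 for Scnn1a (95% interval -1.07 to 0.49), -0.11 for Scnn1b (-0.86 to 0.64) and 0.05 for Scnn1g (-0.65 to 0.75). Sgk1, at 153, 114, 241 and 179 CPM, was higher in both Gulo-/- libraries without overlap, yet the difference of 0.62 (-0.13 to 1.36) did not pass the test (edgeR, adjusted p = 0.759). Nedd4l had 30.5, 100.6, 71.1 and 72.3 CPM, the first from 5 UMIs, and a difference of -0.18 (-0.99 to 0.62). Of the 7590 genes tested in late distal cells 0.448% were called, and 0 of the 5 members. Over the 5 genes the intervals reach from -1.07 to 1.36, and changes inside them were not resolved. PC-like cells made up 2 of 35, 36 of 90, 97 of 155 and 738 of 1224 late distal cells, so the mix moved with the library, and its part was not tested.

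The 1 call on a member was Sgk1 in TAL-like cells. It had 0, 3, 14 and 652 UMIs there, or 0, 3.07, 36.7 and 32.1 CPM, and both Gulo-/- libraries lay above both wild type ones. The count of 0 in wild type 1 came from 38 cells and allows up to 21.1 CPM. The fitted difference was 3.52 ± 0.74 on the log2 scale (edgeR quasi-likelihood, adjusted p = 2.67e-04, range over the alternatives 1.33e-04 to 0.283). The spread behind that test came almost wholly from the other genes of the class, not from Sgk1's own values in the 4 libraries. Over pooled UMIs the ratio was 12.0, with a counting interval of 4.1 to 58.4, since wild type held 3 UMIs of Sgk1 among 1121016. The call was lost without Gulo-/- 2 (3.64, adjusted p = 0.279) and with DESeq2 (3.63, 0.283). It was also lost without wild type 2 (adjusted p = 0.282), where the fitted difference of 10.9 rests on a wild type library at 0 UMIs and is no bound. At a mitochondrial limit of 25% the gene did not pass the filter. Over the 4 libraries left out in turn the difference ran from 3.27 to 10.9. In this class 2.24% of 5971 genes were called, and 1 of the 3 members tested. The genotype difference in TAL-like cells was not shown to exceed that in PT-like cells (1.83 ± 1.34, adjusted p = 0.816).

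Other genes moved with Sgk1 in the same cells, where 2.24% of all genes tested were called. Immediate early and dissociation genes were higher in Gulo-/- TAL-like cells for 11 of 14 tested, among them Zfp36 (2.85), Dusp1 (2.39), Egr1 (2.14) and Fos (1.60), with a median of 1.57 against 0.02 over all genes tested. Their summed level was 639, 704, 1726 and 2462 CPM in TAL-like cells, with 272, 239, 571 and 808 CPM in PT-like cells. Endothelial markers, from the class in which Sgk1 is highest, summed to 35.1, 16.4, 152 and 119 CPM in TAL-like cells, with 4, 8, 10 and 10 of the 10 markers found. PC markers summed to 0, 47.0, 86.5 and 335 CPM there. The part of these genes in the Sgk1 difference was not tested. In endothelial-like cells themselves the Sgk1 difference between the genotypes was -0.02 (95% interval -0.72 to 0.68, adjusted p = 0.995), where 0.703% of 6831 genes were called and 0 of the 1 member tested.

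In the remaining tubule classes no member was called. In PT-like cells Scnn1a, Scnn1b and Scnn1g were at 12.0 CPM or less, and their differences of 1.61, 1.82 and 1.98 did not pass (adjusted p = 0.489, 0.235 and 0.249). Aqp2, which PT-like cells should lack, was at 1.36, 18.9, 67.5 and 220.4 CPM in the same cells. Sgk1 in PT-like cells differed by 0.72 (adjusted p = 0.790), and without wild type 1 by 2.55 with an adjusted p of 0.00301, since wild type 2 alone was low. Nedd4l there differed by 0.06. In this class 0.616% of 11197 genes were called and 0 members. In TAL-like cells Scnn1a (0.56, adjusted p = 0.799) and Nedd4l (0.20, adjusted p = 0.999) did not pass. In DCT-like cells Scnn1a was the 1 member tested, with 0, 45, 62 and 1188 UMIs, and its difference of 1.43 did not pass (adjusted p = 0.376), where 0.847% of 2950 genes were called and 0 members. It passed without wild type 2 (adjusted p = 0.0267), which leaves 10 wild type cells with no UMI of the gene, and also without Gulo-/- 2 (1.96, 0.0464) and with sex as a block (1.99, 0.037). In IC-like cells the differences were 0.42, 0.49, 0.54, 0.51 and -0.56 for Scnn1a, Scnn1b, Scnn1g, Sgk1 and Nedd4l, with adjusted p of 0.921 or more, 1.07% of 5722 genes called and 0 members. Without wild type 2 those of Scnn1b and Scnn1g became 11.57 (adjusted p = 0.115) and 10.21 (0.378), fitted against a wild type library of 11 cells at 0 UMIs. Leaving out each library moved Scnn1a from 0.0103 to 0.81, Sgk1 from 0.37 to 1.22 and Nedd4l from -0.90 to -0.19.

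**Figure D4:**
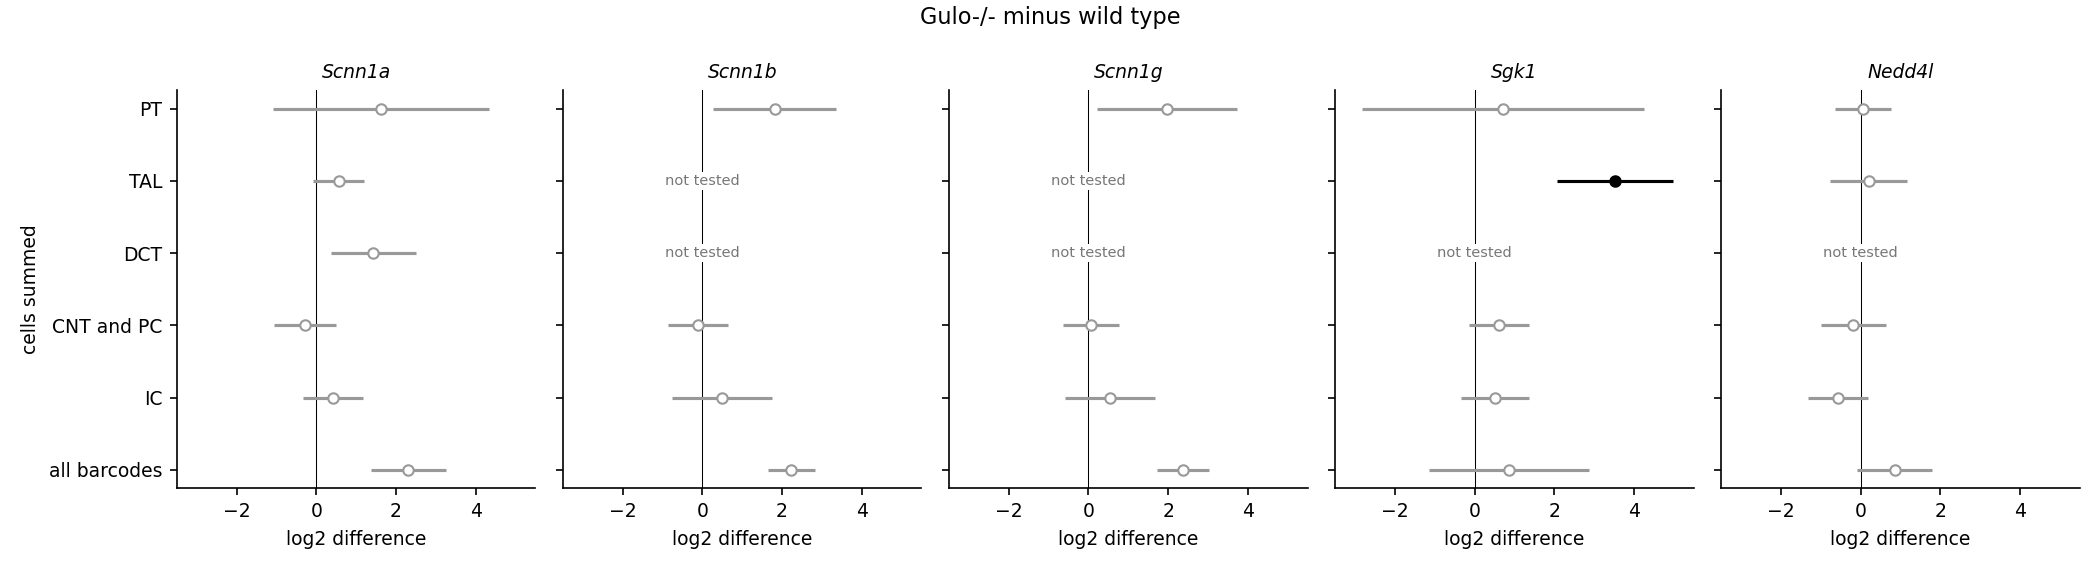
Gulo-/- minus wild type for the 5 genes in each class and over all kept barcodes, in log2 units with 95% intervals, filled where the adjusted p was under 0.05. Sgk1 in TAL-like cells, at 3.52, is the filled point, and the late distal points of the 3 subunits lie between -0.29 and 0.05.

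Over all kept barcodes of a library the picture was another. Scnn1a had 10.9, 18.5, 82.0 and 131 CPM, Scnn1b 11.5, 12.5, 69.4 and 93.3 CPM and Scnn1g 6.97, 8.32, 48.1 and 66.7 CPM. Both Gulo-/- libraries lay above both wild type libraries for all 3, with differences of 2.31 ± 0.36, 2.23 ± 0.23 and 2.37 ± 0.25 (edgeR, adjusted p = 0.0749 each). How many of all genes separate the libraries in this way was not counted. In this comparison 0% of 14118 genes were called and 0 members, while 4454 genes had an unadjusted p under 0.05. DESeq2 called 2589 genes, with the 3 subunits among them (adjusted p = 1.08e-05, 2.36e-08 and 3.40e-08). Sgk1 (0.87, adjusted p = 0.476) and Nedd4l (0.86, adjusted p = 0.183) did not pass. In such a sum, fewer cells of a type and less RNA per cell cannot be told apart. Late distal cells were 35 of 1595, 90 of 7541, 155 of 1877 and 1224 of 13962 kept barcodes. In a second sum, PT-like, TAL-like, DCT-like, late distal, IC-like, endothelial-like and macrophage-like cells each had the same share of UMIs in every library. The log2 ratio of the mean CPM fell from 2.85 to 0.48 for Scnn1a, from 2.76 to 0.22 for Scnn1b and from 2.91 to 0.29 for Scnn1g. It fell from 1.36 to 0.47 for Sgk1 and from 1.40 to 0.05 for Nedd4l. The second sum left out all other barcodes, which in Gulo-/- 2 included 1574 mixed ones and 779 of no class. The part of that change in the fall was not tested.

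Whether the genotype difference itself varied between segments was tested with 8213 genes. For DCT against PT 0.268% were called, for TAL against PT 1.51% and for late distal against PT 2.07%, and 0 of the 5 members in each. The late distal differences fell below those of PT by 2.04 for Scnn1a (adjusted p = 0.607), 1.76 for Scnn1b (0.458), 1.78 for Scnn1g (0.108) and 0.83 for Sgk1 (0.748). With the shared barcodes kept, that of Scnn1g passed (-1.87, adjusted p = 0.0409). PT-like levels of the subunits were low, and their source was not tested. Of the lists, Mtor (2.83), Stk39 (-1.67) and Wnk1 (-1.48) passed for late distal against PT, with 6 of 14 immediate early genes lower.

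The lists were also set between the genotypes. In late distal cells 0 of the genes tested in any of the 7 lists passed, near the 0.448% of all genes called, with 6 tested of the hormone axis, 7 of the proteases, 14 of the kinases and 6 of the ubiquitin genes. Klk1 had 12440, 11350, 3322 and 5972 CPM there, lower in both Gulo-/- libraries without a call, beside the shift from CNT-like to PC-like cells given above. In IC-like cells Klk1 (-1.16, adjusted p = 0.00444) and Fxyd2 (-0.96, adjusted p = 0.0248) were lower in Gulo-/-, and 6 of 15 immediate early genes higher. The share of all genes called there was 1.07%. In TAL-like cells Fkbp5, a glucocorticoid-induced co-chaperone, was higher (1.52 ± 0.42, edgeR, adjusted p = 0.0183), at 21.1, 22.5, 94.4 and 55.1 CPM. Hsd11b2 was higher there too (1.96, adjusted p = 0.00912), at 0, 12.3, 18.4 and 54.8 CPM, against 1871 to 4715 CPM in CNT-like cells. Plau was 1.66 higher (adjusted p = 0.0316). In PT-like cells Per1, a clock gene induced by both steroid hormones, was higher by 2.16 ± 0.35 (edgeR, adjusted p = 0.0434), with 1 of 16 immediate early genes, Egr1 (2.56). In DCT-like cells 3 of 9 immediate early genes were higher, Fos, Jun and Junb. Of all genes, 0.616% were called in PT-like and 0.847% in DCT-like cells.

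The bisulfite data came as the authors' table of differentially methylated regions, with a level between 0 and 1 on each of 2 sides and no value per sample. The table does not say which genotype a side stands for, so they are called side 1 and side 2. Of 86510 regions in the authors' deposited table, 60 were annotated to the 5 members, and 47 of those (78.3%) were lower on side 1, against 53.8% of all regions. The median absolute difference of the 60 was 0.21, against 0.192 over the table. By position 38 of the 60 were intronic (63.3%, against 37.9% of all), 17 intergenic and 2 in the promoter class. Nedd4l gave 32 of the intronic ones. Without Nedd4l, 6 of 23 regions were intronic (26.1%) and 12 intergenic (52.2%, against 42.0% of all).

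Nedd4l accounted for 37 of the 60 in the authors' deposited table, and 33 of the 37 were lower on side 1. The gene spans 333.3 kb, and 55 of 18425 annotated genes had as many regions or more. Introns 1 and 2 held 13 and 7 regions, all lower on side 1, and intron 5 held 12, of which 10 were lower. The median level was 0.576 on side 1 and 0.756 on side 2. The largest fall, in intron 1, was 0.436 against 0.82 over 5 CpGs, and the largest rise, in intron 5, was 0.829 against 0.53 over 26 CpGs. Of the 23 regions of the other 4 genes, 14 were lower on side 1.

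Sgk1 had 11 regions in the authors' deposited table, 8 of them lower on side 1. Of these, 2 lay in the promoter class, and they moved in opposite directions. The first, chr10:21978440-21978652, 20 bases before 1 of the gene's starts by the authors' annotation, had 0.911 on side 1 and 0.757 on side 2 over 7 CpGs. The second, chr10:21992675-21992905, had 0.0959 and 0.249 over 10 CpGs and was low on both sides. The sequence of the first, chr10:21978439-21978653 on the plus strand with 1 base added at either end so that the outer CGs are whole, is shown because it is the 1 region of the 60 that fell inside a RefSeq promoter window, with CG in capitals.
Sgk1 region: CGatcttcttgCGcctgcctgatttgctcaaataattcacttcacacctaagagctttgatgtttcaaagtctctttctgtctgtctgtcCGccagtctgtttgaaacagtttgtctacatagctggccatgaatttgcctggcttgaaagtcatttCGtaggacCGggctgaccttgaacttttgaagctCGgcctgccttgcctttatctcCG
It held 7 CG, as many as the table counts. The largest difference of the gene lay in exon 10 of 14, chr10:21997025-21997628, at 0.41 on side 1 against 0.781 on side 2 over 17 CpGs. A region in the 3' UTR, chr10:21999067-21999705, had 0.432 against 0.614, also over 17 CpGs. None of the 11 regions lay in the window with the hormone receptor palindrome printed above.

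The 3 subunit genes together held 12 regions. Scnn1a had 1 in the authors' deposited table, in intron 1 of 11 at chr6:125322832-125323139, with 0.594 on side 1 and 0.767 on side 2 over 13 CpGs. The authors' annotation puts it 1.49 kb from a start that is not the first base of the Scnn1a span given above. Scnn1g had 2, both intergenic and about 50.3 and 51.1 kb past the start, at 0.883 against 0.633 and at 0.515 against 0.712, in opposite directions. Scnn1b had 9, of which 4 were lower on side 1. The largest, in exon 8 of 13 at chr7:121914031-121914248, had 0.758 against 0.46 over 5 CpGs. Another, in intron 1 of 12 at chr7:121866967-121868262 and 1.93 kb past the start, covered 1296 bases at 0.662 against 0.881 over 13 CpGs. None of the 12 regions of the 3 subunit genes lay in the promoter class, and none of them lay in the stretches of Scnn1b and Scnn1g printed above.

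**Figure D5:**
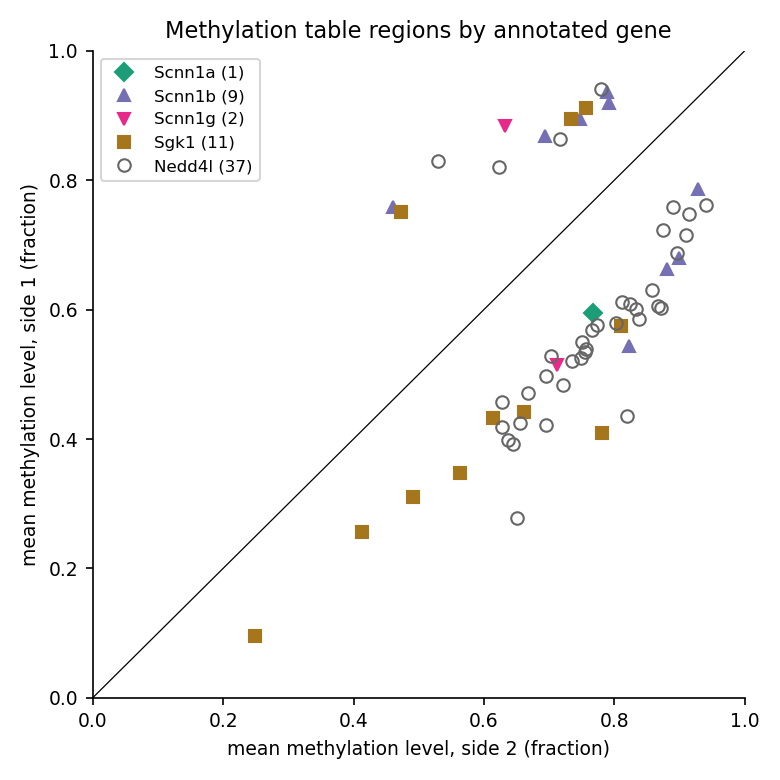
Methylation level on side 1 against side 2 for the 60 regions annotated to the 5 genes, 1 point per region, with a diagonal for equal levels. For Nedd4l 33 of 37 points lie below the diagonal, lower on side 1, while the 9 points of Scnn1b lie on both sides of it.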

How the data were processed

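The deposited single-cell files hold UMI counts per gene and barcode, without normalization, for 4 libraries. Per the submitters' processing notes the genome build was mm10 and Seurat 2.3.4 was used, and they name no counting tool. The authors' marker table gives natural log ratios, the base being taken from the Seurat version, detection fractions and p-values over cells, the last of which are not printed. The authors' table of differentially methylated regions gives a level as a fraction for each side. Percentages were computed from the deposited counts and fractions. The immunoprecipitated and bulk RNA samples were not analysed here.

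The members and lists were chosen with earlier results of these data known. Barcodes with at least 500 UMIs, 200 genes and at most 50% mitochondrial UMIs were kept. A barcode joined a class when that class's markers gave at least 3 UMIs from at least 2 markers and its score, the marker share relative to the mean of the 20 highest barcodes, was at least 0.1 and at least 2 times the next. No doublet caller was run: 1760 barcodes with a closer next class were left out as mixed, and 1340 reached no class. A class was used in a library with at least 10 cells. UMIs were summed per library and class and tested with edgeR 4.0.16 in R 4.3.3 (quasi-likelihood F test, filterByExpr, TMM, Benjamini-Hochberg over all genes tested), after the scripts were tested on simulated data. Differences are on the log2 scale with their standard errors, and genes were called at an adjusted p under 0.05. Between segments the library was a term, and between genotypes there was no covariate.

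Alternatives were DESeq2 1.42.0, its size factors, no filter, no library term, a 4-fold gate, a 25% mitochondrial limit, shared barcodes kept, the 5% of barcodes with the most UMIs removed, blocks for sex and replicate number, and each library left out. Endothelial-like cells, and the alternatives for differences between segments, were added after seeing the data. Of each list, called genes were named, up to 6 by size, and up to 4 others as values. Likeness was taken over genes with at least 50 late distal UMIs, naming genes from the top 5. Some genes that these rules name are not reported here. Intervals on counts and shares are exact at 95%, a count of 0 allows up to 3 counts, and both cover counting error only.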

Additional observations from a re-analysis of the deposited data

How the results depend on the processing

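Of 49 results on single members, 568 alternatives gave a value, of which 485 kept direction and side of the threshold, 23 lost the call, 33 gained one and 27 reversed a difference, none of them a called one. The number of members called between PC and CNT went from 1 to 0 with DESeq2's size factors, no filter, no library term, the 25% mitochondrial limit and without the top 5% of barcodes. The mitochondrial limit took IC against PC from 2 to 1 (Scnn1b, -1.44, adjusted p = 0.230) and TAL by genotype from 1 to 0, as DESeq2 did. No filter gave 2 in PT by genotype, 3 over all barcodes and 2 for late distal against PT. DESeq2 gave 3 over all barcodes, the sex block 1 in DCT (Scnn1a, 1.99, adjusted p = 0.037), the 25% limit 2 and the shared barcodes 1 for late distal against PT. Leaving out each library gave 2 to 3 members for TAL against PT, 3 to 4 for CNT against DCT, 0 for PC against CNT, 1 to 2 for IC against PC, 0 to 1 in PT, TAL and DCT by genotype, and 0 to 3 over all barcodes and for late distal against PT. The call of Sgk1 between DCT and CNT was also lost with no filter, no library term, the 4-fold gate, the 25% limit and without the top 5% of barcodes, with adjusted p between 0.0269 and 0.464 over all alternatives. Where a setting drops cells or libraries, fewer UMIs are tested. For the others the cause was not tested.

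Replicate numbers did not pair the libraries: deviations of same-numbered libraries correlated at 0.0022 in PT, -0.0356 in TAL and -0.0601 in late distal cells. With the replicate block, 1 member was called in PT (Scnn1a, 1.90, adjusted p = 0.0397) and 3 over all barcodes (Scnn1a 2.34, Scnn1b 2.23 and Scnn1g 2.38), Sgk1 in TAL stayed called (3.48, adjusted p = 0.0302), and genes called numbered 480 in PT, 52 in TAL, 41 in DCT, 2 in late distal, 17 in IC, 1236 over all barcodes and 409 in endothelial-like cells.

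Reversals were small for most. With no library term, Scnn1b was 0.0203 between PC and CNT and Scnn1a -0.10 between IC and PC. Nedd4l was 0.0338 between IC and PC with the 4-fold gate and 0.0576 with the 25% limit. In late distal cells by genotype, Nedd4l was 0.0046 with the sex block and 0.0091 with the 4-fold gate, and Scnn1g -0.0298 with the 25% limit, which also gave -0.69, -0.83 and -0.43 for Scnn1b, Scnn1g and Sgk1 in IC. Sgk1 in endothelial-like cells was 0.0216 with no filter, 0.0317 with the 4-fold gate and 0.0924 without the top 5%. On leaving out each library, PC against CNT ran from -0.34 to 0.0132 for Scnn1b, -0.55 to 0.11 for Scnn1g and -0.25 to 0.61 for Sgk1, and IC against PC from -0.0762 to 0.0107 for Nedd4l. By genotype, Sgk1 in PT ran from -0.10 to 2.55, Nedd4l in PT from -0.15 to 0.32, and Sgk1 in endothelial-like cells from -0.34 to 0.26. Late distal differences ran from -0.71 to 0.0895 for Scnn1a, -0.40 to 0.27 for Scnn1b, -0.0865 to 0.23 for Scnn1g and -0.53 to 1.16 for Nedd4l.

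Genes called over all tested ranged from 3198 to 6700 (TAL against PT, 4555 as reported), 175 to 597 (DCT against TAL, 449), 303 to 755 (CNT against DCT, 732), 462 to 1096 (PC against CNT, 992) and 1060 to 2445 (IC against PC, 1877). By genotype they ranged from 0 to 971 in PT (69), 2 to 170 in TAL (134), 3 to 66 in DCT (25), 1 to 220 in late distal (34), 13 to 153 in IC (61), 0 to 2589 over all barcodes (0) and 7 to 409 in endothelial-like cells (48). Differences between segments ranged from 4 to 361 for TAL (124), 2 to 164 for DCT (22) and 32 to 445 for late distal cells (170), each against PT. DCT by genotype could not be fitted at the 25% limit. Wild type 1 held 35 late distal and 38 TAL-like cells, the fewest of the 4 libraries.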

Other observations

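CNT-like cells were not alike in the members. Split by whether a cell held a UMI of Aqp2, a split made after seeing the values, the cells with Aqp2 had more of the 3 subunits and of the kinase in all 4 libraries, with no test. Sgk1 had 185, 157, 246 and 77.2 CPM in the 27, 35, 40 and 408 cells with an Aqp2 UMI and 55.2, 10.8, 62.3 and 15.8 CPM in the 6, 19, 18 and 78 cells without. The values without rest on 1, 1, 4 and 5 UMIs. Scnn1g had 378, 234, 536 and 232 CPM with and 55.2, 32.2, 312 and 133 CPM without, and Scnn1b 555, 311, 465 and 296 CPM with and 110.4, 172, 389.7 and 193 CPM without. In cells without Aqp2, Scnn1g rested on 1 and 3 UMIs in wild type 1 and 2, and Scnn1b on 2 in wild type 1. Scnn1a had 308, 287, 383 and 152 CPM with and 221, 107.5, 218 and 126 CPM without, and Nedd4l was higher with Aqp2 in 3 of the 4 libraries, on 1 to 10 UMIs in the cells without. The cells with Aqp2 were deeper, with median UMIs of 3116, 8774, 4682 and 7421 against 2777.5, 3626, 2967 and 3012.5, and the part of depth in the split was not tested.

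Barcodes that carried markers of neighbouring classes in like amount stood outside the comparisons. In Gulo-/- 2, 66 barcodes with both DCT and CNT markers had 148 CPM of Scnn1a, 98.0 of Scnn1b and 80.6 of Scnn1g, so Scnn1b and Scnn1g lay between their DCT-like (16.8 and 6.45 CPM) and CNT-like levels (286 and 223 CPM). A further 226 barcodes with both CNT and PC markers had 438 CPM of Scnn1b and 288 CPM of Scnn1g. Doublets and cells of a transitional stretch cannot be told apart in these barcodes.

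Outside the distal nephron, Sgk1 had 89.0 CPM in 145 thin limb-like cells of Gulo-/- 2 and 119.5 CPM, from 9 UMIs, in 15 stromal-like cells of the same library. In 24 urothelium-like cells of that library it had 365.6 CPM, from 108 UMIs, above the PC-like 236 CPM and below the endothelial-like 839.7 CPM.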
